A study of Rattus norvegicus with 16 samples.

Results

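Zbtb16 encodes PLZF, a transcription factor with a BTB domain and a row of zinc fingers. Its level was read on every array of the series by 3 of the 45598 probes for rat transcripts, that is, by all probes whose transcript accession belongs to this gene, which is 1 of the 16678 gene symbols on the array. The gene was chosen by its signal in allergic against control rats, in lung and in adipose tissue, so these values are described here without a test. RNA from the lung and from the adipose tissue of 8 rats was hybridised to 16 arrays, 1 array for each rat and tissue. The rats were male Brown Norway rats, given as 7 weeks old ahead of the weeks of treatment described next. The 5 allergic rats (HDM rats) were given 45 µg of house dust mite (HDM) under the skin every week for 3 weeks, with aluminium hydroxide as adjuvant, and then 120 µg of HDM into the nose on 3 days a week for 3 weeks. The 3 control rats were given the same adjuvant and the same schedule, with saline in place of HDM.

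PLZF binds DNA through its zinc fingers and mostly lowers transcription, recruiting the corepressors NCoR and SMRT and histone deacetylases through its BTB domain. The gene is induced by glucocorticoids in many tissues, among them lung and fat, and the protein takes part in the differentiation of fat cells. In the immune system PLZF directs the development of NKT cells and other innate-like lymphocytes, and the let-7 microRNAs are known to hold its level down in these cells. The study measured let-7b in serum vesicles of these rats, and the microRNA itself is not read by the arrays.

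The sequences at issue are the microRNA that the study took as a candidate partner of the Zbtb16 transcript and the probe that holds a stretch with the cysteine spacing of a zinc finger. The mature microRNA is shown to let a reader see its seed, bases 2 to 8, in capitals. It is taken from RefSeq on GRCr8 (chr7:118684044-118684065, plus strand), and 9 of 693 mature rat microRNA names carried the same seed.
rno-let-7b-5p: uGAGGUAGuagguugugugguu
Of the probe, bases 8 to 37 of 60 are shown, read from the study's list of probes. The capitals mark the triplets TGT, which encode cysteine and stand 2 triplets apart in a reading frame without a stop, 1 of 2 such frames of this probe, the spacing of the cysteines in a zinc finger.
A_44_P366142: tatgagTGTgagttcTGTggcagctgcttc
The complement of the let-7 seed, CTACCTC, occurred 0 times in the 60 bases of each of the 3 probes, which says only that these letters are not in those short stretches. RefSeq places Zbtb16 at chr8:57885886-58073507 on GRCr8, with 3 transcripts. The positions of the probes on this build were not determined.

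The signal of a probe is given as log2 intensity relative to the 75th percentile of its array, so that 0 is the level of a probe brighter than 75 percent of all probes. The 75th percentile itself was 376 to 488 intensity units in lung and 111 to 240 in adipose tissue. The tissue labels were checked against marker genes. In lung all 12 measured genes of lung epithelium were well above background on every array. The summed level of 18 fat cell genes, as multiples of the 75th percentile, was 2110 to 3720 in adipose tissue and 41.3 to 86.4 in lung. In adipose tissue 2 rats stood apart: the summed level of 22 genes of epididymis and testis was 5910 in control rat 1 and 5060 in HDM rat 1, against 0.724 to 41.3 in the other 6 rats. The adipose array of HDM rat 2 held 1224 outlier spots, against 355 to 444 on the other adipose arrays.

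In lung, Zbtb16 was bright in every control rat and dim in every HDM rat. On the probe with the highest mean signal, A_44_P194939, the log2 level was 4.15, 4.05 and 3.83 in control rats 1 to 3. It was -0.65, -0.26, -1.11, -0.60 and -0.82 in HDM rats 1 to 5. The groups did not overlap, and a gap of 4.09 on the log2 scale lay between the lowest control rat and the highest HDM rat. The mean was 4.01 ± 0.17 (SD, n = 3) in control rats and -0.69 ± 0.31 (SD, n = 5) in HDM rats, a log2 difference of -4.70, which is a level 26 times as high in control rats. In intensity units the control rats read 6894, 7241 and 5508, and the HDM rats between 174 and 361.

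Both other probes gave the same picture in lung. A_42_P819067 read 3.20, 3.1 and 2.99 in control rats and -1.34, -1.29, -1.96, -1.35 and -1.75 in HDM rats. A_44_P366142, dimmer throughout, read 0.95, 0.80 and 0.60 in control rats and -3.52, -3.40, -4.32, -4.15 and -4.15 in HDM rats. The log2 differences were -4.64 and -4.69, and HDM rat 3 was the lowest HDM rat on all 3 probes. Taken as the distance from the control mean, the value of a rat differed between the 3 probes by 0.03 to 0.48 on the log2 scale. The 3 probes were well above background and below saturation on all 16 arrays, so the dim HDM lungs still gave a measured level and not a bound. In whole tissue, fewer cells that carry a transcript and less transcript in each cell cannot be told apart.

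In adipose tissue the control rats again lay above the HDM rats, over a shorter distance. A_44_P194939 read 2.87, 4.24 and 3.95 in control rats and 0.73, 1.66, 1.25, 0.82 and 1.26 in HDM rats. The groups did not overlap, with a gap of 1.21 between control rat 1 and HDM rat 2. The mean was 3.68 ± 0.72 (SD, n = 3) in control rats and 1.14 ± 0.38 (SD, n = 5) in HDM rats, a log2 difference of -2.54, or a level 5.81 times as high in control rats. The spread of the control rats was mostly that of control rat 1, whose level was the lowest of its group on all 3 probes.

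The other probes gave log2 differences of -2.44 and -2.20 in adipose tissue. A_42_P819067 read 1.88, 3.13 and 2.89 in control rats and -0.34, 0.73, 0.28, -0.07 and 0.38 in HDM rats. A_44_P366142 read -1.46, 0.53 and -0.01 in control rats and -2.94, -1.95, -2.79, -2.51 and -2.39 in HDM rats, with a gap of 0.49 between the groups. In each group the adipose array with the highest level of epididymis genes, that of control rat 1 or of HDM rat 1, was also the one with the lowest Zbtb16, on all 3 probes. Without these 2 arrays the log2 difference on A_44_P194939 was -2.84, so it was as large without them.

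**Figure D1:**
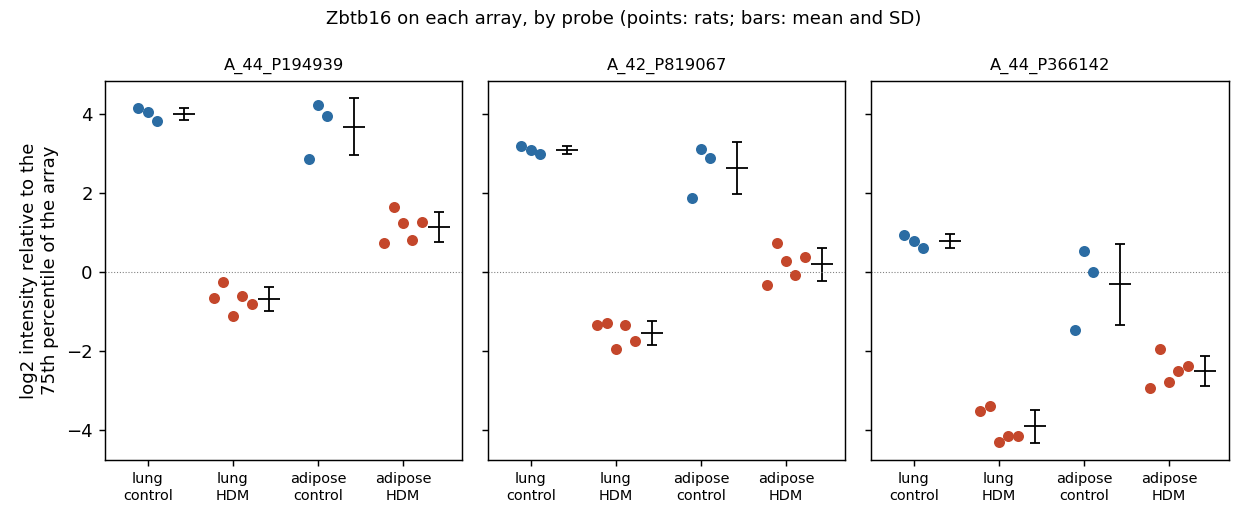
Log2 intensity of Zbtb16 relative to the 75th percentile of the array (vertical axis) for the 3 probes (panels) in the 4 groups (horizontal axis). Each point is 1 rat, blue for control and red for HDM, and the bars give mean and SD. On each probe all HDM rats lie below all control rats, by 4.00 to 4.28 in lung and by 0.49 to 1.21 in adipose tissue at the nearest pair.

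Scaling moved these differences little. Over quantile normalization, 3 other reference levels, another background correction and the deposited table, the log2 difference on A_44_P194939 ranged from -4.81 to -4.37 in lung and from -2.59 to -2.24 in adipose tissue. The arrays lay in 2 rows of each slide, with HDM rats 1 to 4 in row 1 and HDM rat 5 beside the control rats in row 2. Within row 2 the log2 difference was -4.83 in lung and -2.42 in adipose tissue. Leaving out each rat in turn gave -4.81 to -4.59 in lung and -2.95 to -2.26 in adipose tissue.

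Among the 27963 lung probes that were well above background in all control rats, the 3 Zbtb16 probes held places 1, 3 and 4 from the lowest log2 difference. Place 2 was held by A_44_P505440, to which the gene tables used here give no symbol, with -4.70. It read 2.83, 2.52 and 2.41 in control lungs and -2.10, -1.58, -2.25, -2.11 and -2.50 in HDM lungs, and its log2 difference in adipose tissue was -2.13. Its distance from A_44_P194939, the root mean square over the 8 lungs of the difference between both profiles, each centred on its control mean, was 0.15, against 0.11 and 0.17 for the other Zbtb16 probes. In adipose tissue the 3 probes held places 31, 39 and 53 of 22785, and the lowest place belonged to Lcn5, an epididymis gene, with -4.44. Zbtb16 was chosen by this difference, and the ranked probes by their signal in control rats, where Zbtb16 was bright. Its places therefore describe it and add no support.

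Whether Zbtb16 differs between the tissues was tested in the control rats alone. This comparison was not itself used to choose the gene, but its control values were part of both contrasts that were. The choice favours high control values in both tissues, so this test is not free of it. The difference passed on none of the 3 probes. Of all probes 45.6% passed between these tissues in limma, with an adjusted p below 0.05 and a fold change above 1.5. On A_44_P194939 lung minus adipose tissue was 0.33 on the log2 scale (SE 0.38, 95% interval -0.59 to 1.24, limma adjusted p = 0.492). On A_42_P819067 it was 0.46 (interval -0.38 to 1.31, limma adjusted p = 0.297) and on A_44_P366142 it was 1.10 (interval -0.14 to 2.34, limma adjusted p = 0.12). These intervals leave room for a difference of more than 2-fold in favour of lung. Control rat 1 had the largest difference on each probe. Within a rat, lung minus adipose tissue on A_44_P194939 was 1.29, -0.19 and -0.12 in control rats 1 to 3, and without control rat 1 the difference there was -0.15 (limma adjusted p = 0.587). On A_42_P819067 the values were 1.32, -0.03 and 0.10. On A_44_P366142 lung was higher in all 3 control rats, by 2.40, 0.28 and 0.61. All lung arrays were on one slide and all adipose arrays on the other, so tissue and slide cannot be told apart.

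In the HDM rats, by contrast, each lung read lower than the adipose tissue of the same rat. On A_44_P194939 lung minus adipose tissue was -1.38, -1.92, -2.36, -1.42 and -2.08 in HDM rats 1 to 5, with a mean of -1.83 ± 0.43 (SD, n = 5), a level 3.56 times as high in adipose tissue. The other probes gave means of -1.74 and -1.39, with the lung lower in 5 of 5 rats on each. The change in lung exceeded the change in adipose tissue by 2.16, 2.20 and 2.49 on the log2 scale on the 3 probes. These values belong to the contrast that chose the gene, and no test was made of them.

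**Figure D2:**
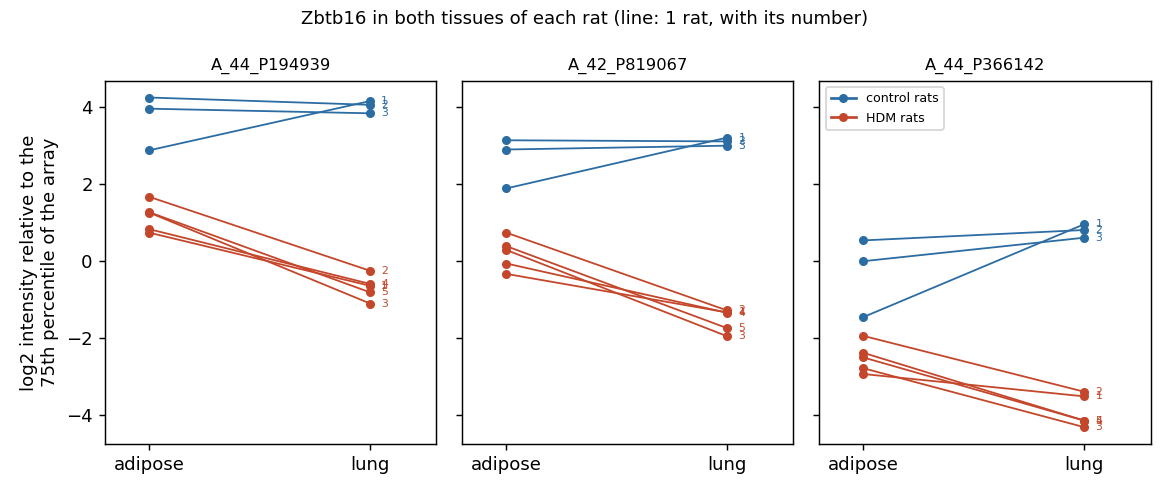
Log2 intensity of Zbtb16 relative to the 75th percentile of the array (vertical axis) in the adipose tissue and lung of each rat (horizontal axis) for the 3 probes (panels). Each line joins both tissues of 1 rat, blue for control and red for HDM, with the number of the rat at its lung value. All 5 red lines fall from adipose tissue to lung, while the blue line of control rat 1 rises on each probe, by 1.29 on A_44_P194939. The blue lines of control rats 2 and 3 run from -0.19 to 0.10 on A_44_P194939 and A_42_P819067 and rise by 0.28 and 0.61 on A_44_P366142.

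The gene most like Zbtb16 was Fkbp5 in lung, in adipose tissue and over both. Likeness was the root mean square distance just described, over 15537 candidate probes in lung, 13255 in adipose tissue and 12946 over both tissues. Candidates had a gene symbol and were well above background on every control array, with no condition on HDM arrays, which favours genes high in control rats. The distance ranks genes by the size of the step between the groups as well as by its shape. Fkbp5 encodes a co-chaperone of the glucocorticoid receptor and is a standard readout of glucocorticoid action. Its distance was 1.53 in lung and 0.66 in adipose tissue. After it came Tent5b, Tmem169, Gal and Abra in lung, at 1.78 to 2.07. In adipose tissue came, among others, LOC102547513, Tent5b and Hecw2, at 0.67 to 0.83, with Hecw2 well above background in only 1 of 5 HDM rats. Over both tissues the order began with Fkbp5, Tent5b, Per1 and LOC102547513. No gene symbol other than Zbtb16 came as near in lung as its own other probes, at 0.11 and 0.17.

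Fkbp5 read 4.45, 4.01 and 4.19 in control lungs and 1.56, 1.54, 1.36, 1.37 and 1.39 in HDM lungs. In adipose tissue it read 4.98, 4.80 and 5.12 in control rats and 3.37, 2.99, 2.82, 2.54 and 2.90 in HDM rats. The groups did not overlap in either tissue. Tent5b, which encodes a non-canonical poly(A) polymerase, read 4.29, 4.27 and 4.27 in control lungs and 1.49 to 2.20 in HDM lungs. In adipose tissue Tent5b read 1.88, 2.67 and 2.94 in control rats and -0.30 to 1.41 in HDM rats. Both genes were picked for their likeness, so their log2 differences describe them and add no support. In lung these were -2.78 for Fkbp5 and -2.49 for Tent5b, and in adipose tissue -2.04 and -1.92. Abra and Tmem169 followed Zbtb16 in lung, at log2 differences of -2.17 and -2.40, with Tmem169 well above background in only 2 of 5 HDM lungs.

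Zbtb16 is one of the genes that glucocorticoids induce, and a list of 34 other such genes was measured in full. In lung 7 of the 34 fell and 0 rose, where 0.373% of all probes fell, 0.482% rose and 0.855% passed in either direction at a limma adjusted p below 0.05 and a fold change above 1.5. The 7 were Fkbp5, Per1, Map3k6, Fam107a, Klf15, Klf9 and Rgcc. The median log2 difference of the list was -0.43, against 0.00 over all probes. At an unadjusted p below 0.05, 17 of the 34 were lower and 0 higher, where 4.93% of all lung probes were lower and 5.25% higher.

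Fkbp5 and Per1 were also among the genes most like Zbtb16, and the list was chosen with earlier results of these data known. The counts of the list and the p-values of these genes therefore describe them and add no support. By size, Fkbp5 fell by 2.78 on the log2 scale in lung (SE 0.13, limma adjusted p = 0.000134). Per1, a clock gene with glucocorticoid response elements, fell by 2.00 (SE 0.32, limma adjusted p = 0.0401) on its brighter probe, while its other probe differed by -1.26 and did not pass (limma adjusted p = 0.393). Map3k6, a stress kinase, fell by 1.87 (limma adjusted p = 0.000848), Fam107a, an actin-binding stress gene, by 1.65 (limma adjusted p = 0.00238), and Klf9, a Krüppel-like factor, by 1.25 (limma adjusted p = 0.0235). Tsc22d3, which encodes the anti-inflammatory protein GILZ, had a log2 difference of -1.57 with 1 HDM lung missing as an outlier spot and did not pass (limma adjusted p = 0.0671). Sgk1 and Dusp1, also classical targets, differed by 0.03 and 0.39 and did not pass. With slide row as a block the difference rests on HDM rat 5 alone against the control rats. That fit cannot decide these calls. In it Fkbp5 differed by -2.83, Per1 by -1.89, Map3k6 by -1.82, Fam107a by -1.62 and Klf9 by -1.04. Without 1 rat 4 to 9 genes of the list passed, the lowest number without control rat 1 or control rat 2.

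In adipose tissue no probe passed (0% of 45598, lowest limma adjusted p = 0.0853), so no gene of any list could be called there. At an unadjusted p below 0.05, 1.02% of all probes were higher and 8.88% lower in HDM rats, and of the 34 glucocorticoid-induced genes 0 were higher and 8 lower. The median log2 difference of the list was -0.32, against -0.15 over all probes. Over the 16678 gene symbols, each read from its brightest probe as the list genes were, the median was -0.05. The percentages of all probes are likewise taken over every probe and not over 1 per gene. The median of the list was -0.03 when arrays were scaled to their median, a setting that moved the median of all probes to 0.14. Fkbp5 had the lowest adjusted p of the list, with a log2 difference of -2.04 (limma adjusted p = 0.0853). Per1 differed by -1.27 and Tsc22d3 by -1.23, with no overlap of the groups, while Klf9 differed by -1.03 with HDM rat 2 at -0.01 and the other HDM rats at 2.74 to 3.46.

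**Figure D3:**
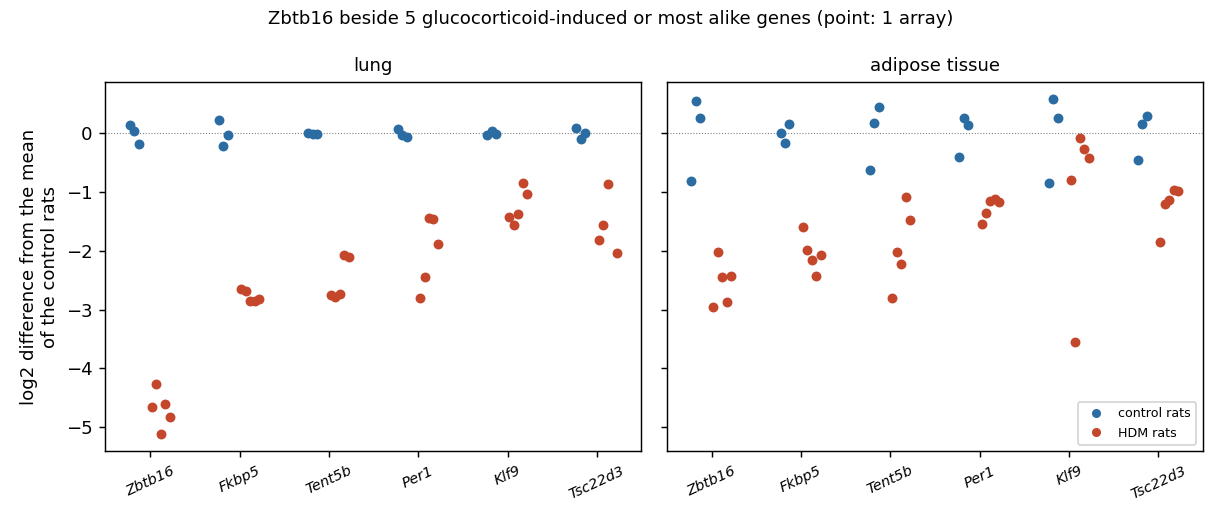
Log2 difference of each array from the mean of the control rats of its tissue (vertical axis) for Zbtb16 on A_44_P194939 and 5 genes beside it (horizontal axis) in lung and adipose tissue. Each point is 1 array, blue for control and red for HDM; the missing HDM lung of Tsc22d3 is an outlier spot. Zbtb16 lies lowest in lung, between -5.12 and -4.27 in HDM rats, and in adipose tissue the range of its HDM rats overlaps those of Fkbp5 and Tent5b.

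The genes of the receptor that glucocorticoids act through were measured as well. Of 15 measured steroid receptors, chaperones, coactivators and 11-beta dehydrogenases, 2 fell in lung and 0 rose, against 0.373% and 0.482% of all probes. These were Fkbp4, a receptor co-chaperone (log2 difference -1.05, limma adjusted p = 0.015), and Stip1, which links HSP70 to HSP90 (-0.93, limma adjusted p = 0.00686). Nr3c1, the glucocorticoid receptor itself, differed by 0.24 in lung and 0.68 in adipose tissue, the latter over 4 HDM rats, and did not pass. Hsd11b1, which regenerates active glucocorticoid in tissue, differed by -0.20 in lung and -0.25 in adipose tissue and did not pass. At an unadjusted p below 0.05, 5 of the 15 were lower in lung and 0 higher, against 4.93% and 5.25% of all probes. The median log2 difference of the 15 was -0.17 in lung, against 0.00 over all probes. With slide row as a block, which rests on HDM rat 5 alone, Fkbp4 differed by -0.91 and Stip1 by -0.85.

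For the genes around PLZF and the lists after them, counts are read against the 0.855% of lung probes and 0% of adipose probes that passed. A count of 0 in lists of this size is near the background. Of 20 measured corepressors and partners 0 passed, with median log2 differences of -0.02 in lung and -0.04 in adipose tissue. Ncor1, the corepressor, differed by -0.11 in lung and 0.16 in adipose tissue, and Cul3, the ubiquitin ligase scaffold that PLZF binds, by -0.03 and 0.12. Runx1t1 had the smallest unadjusted p of this list in lung, with a log2 difference of 0.55 (limma adjusted p = 0.146).

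Of 10 measured genes reported in the literature as regulated by PLZF, 0 passed in either tissue, and 3 lay at an unadjusted p below 0.05 in lung, 1 higher and 2 lower. Their median log2 differences were -0.20 in lung and -0.17 in adipose tissue. Pik3r1, the regulatory subunit of PI3-kinase, differed by -0.77 in lung on its brighter probe (limma adjusted p = 0.103) and Ddit4, an inhibitor of mTOR signalling that glucocorticoids also induce, by -1.30 (limma adjusted p = 0.181). Of 43 other measured ZBTB family members 0 passed in either tissue, with medians of -0.04 and -0.05. Zbtb20, a family member that acts in liver, differed by -0.08 in lung and -0.13 in adipose tissue. At an unadjusted p below 0.05, 2 of the 43 were higher and 5 lower in lung, against the 5.25% and 4.93% of all probes given above.

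PLZF has been described to meet the inflammasome adaptor ASC, and 15 inflammasome genes were measured. In lung 3 of them rose: Il1b by 1.62 on the log2 scale (limma adjusted p = 0.0373), Il1rn by 1.39 (limma adjusted p = 0.0127) and the sensor Nlrp3 by 0.73 (limma adjusted p = 0.0326). Pycard, which encodes ASC, differed by 0.21 in lung and 0.40 in adipose tissue and did not pass. Of 26 measured let-7 targets other than Zbtb16, 2 rose in lung and 0 fell. These were Fas, the death receptor (0.72, limma adjusted p = 0.0438), and Vav3, a guanine nucleotide exchange factor (0.61, limma adjusted p = 0.0455). At an unadjusted p below 0.05 the let-7 list held 4 higher and 4 lower genes in lung, against 5.25% and 4.93% of all probes. Its median log2 difference was 0.00 in lung and 0.05 in adipose tissue. Vav3 was also singled out by the study on these arrays, so it is not independent evidence. By qPCR in lung the study found no significant difference for Vav3 and a higher level of Ptafr. On the arrays Ptafr, another gene of this list, differed by 0.66 in lung and did not pass (limma adjusted p = 0.0671). The calls of Fas and Vav3 were lost in 8 of 8 fits without 1 rat and when arrays were scaled to their median. Without 1 rat Il1rn passed in 5 of 8 fits, Il1b in 2 and Nlrp3 in 1. The fit with slide row as a block rests on HDM rat 5 alone. In it Il1b differed by 2.26, Il1rn by 1.1, Nlrp3 by 0.79, Fas by 0.72 and Vav3 by 0.47.

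Cell type markers moved with the groups in part. Innate-like lymphocytes are known for their PLZF, and of 25 measured genes of this list 0 passed in either tissue. Their summed level was 51.3 to 60.4 in HDM lungs and 53.3 to 59.2 in control lungs, so the ranges overlapped widely, and 22 to 24 of the 25 were well above background in lung. In adipose tissue the sums were 71.5 to 110 in HDM rats and 80.0 to 106 in control rats, again with overlap. There 11 to 15 of the 25 were well above background in HDM rats and 15 to 18 in control rats. Of the 25 genes 20 had a log2 difference below 0 in adipose tissue and 5 above, which a sum led by few bright genes does not show. Tbx21, a T-box factor of NK and T cells, made up 51.8% to 58.1% of the sum in lung and 75.5% to 86.4% in adipose tissue. Without it the sums still overlapped, at 23.3 to 28.2 against 23.0 to 25.4 in lung and 13.0 to 27.0 against 14.5 to 24.6 in adipose tissue. The median log2 difference of the list was 0.13 in lung and -0.44 in adipose tissue, against 0.00 and -0.15 over all probes. Over all gene symbols, with 1 probe each, the medians were -0.01 and -0.05. In adipose tissue 3 of the 25 were lower and 0 higher at an unadjusted p below 0.05, against 8.88% and 1.02% of all probes. Among these 3, Il17rb was well above background on 0 adipose arrays and Id2 on every one. Sh2d1a, the third, was well above background in 3 control rats and 1 HDM rat. Of the neutrophil genes 7 of 14 rose in lung, among them S100a9 by 4.09 (limma adjusted p = 0.000376) and S100a8 by 4.46 (limma adjusted p = 0.000736). With slide row as a block, which rests on HDM rat 5 alone, S100a9 differed by 3.75, Mmp8 by 3.31 and S100a8 by 3.89. The summed level of the neutrophil genes was 158 to 310 in HDM lungs and 18.6 to 45.3 in control lungs. In adipose tissue it was 4.26 to 9.93 against 1.53 to 2.20. In adipose tissue S100a8 and S100a9 made up 49.7% to 80.5% of the sum in HDM rats. Without them it was 1.49 to 3.14 in HDM and 1.27 to 1.89 in control rats, which overlap, and 7 of the 14 genes lay above 0 and 7 below, with a median of 0.18. Of the lists of lung epithelium, fat cells, skeletal muscle and epididymis 0 genes passed in either tissue. The part of these cells in the level of Zbtb16 was not tested.

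**Figure D4:**
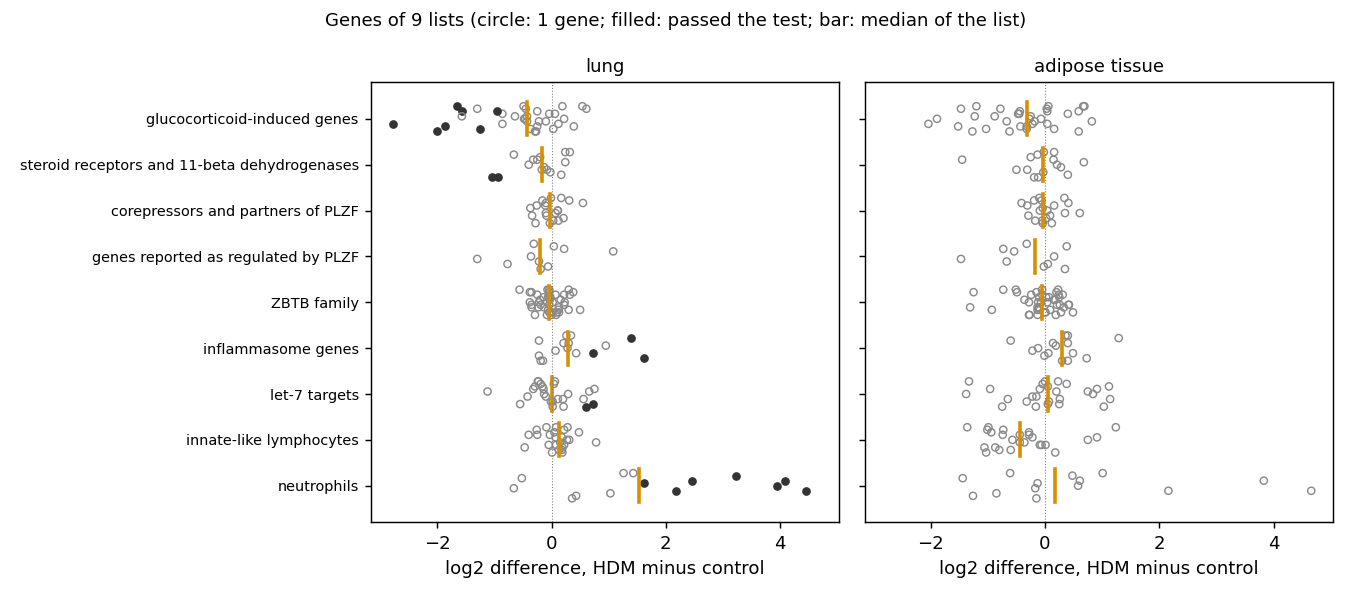
Log2 difference between HDM and control rats (horizontal axis) for the genes of 9 lists (vertical axis) in lung and adipose tissue. Each circle is 1 gene, filled where it passed at a limma adjusted p below 0.05 and a fold change above 1.5, and the bar is the median of the list. In lung the filled circles of the glucocorticoid-induced genes lie below 0 and those of the neutrophil genes above 0, and in adipose tissue no circle is filled.

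A different question is which genes vary with Zbtb16 among rats of the same group. For this each value was taken as its deviation from the mean of its own group, so the step between HDM and control rats was removed. Over the 16 arrays of 8 rats the 3 genes with the highest Pearson r to A_44_P194939, among 12946 candidate probes, were Pik3r1 (r = 0.95, Spearman's coefficient 0.93), Fign (r = 0.95, Spearman's coefficient 0.92) and Mcam (r = 0.93, Spearman's coefficient 0.89). Mcam encodes an adhesion molecule of vessel walls and Fign a microtubule-severing enzyme. Pik3r1 stood on the list of genes reported as regulated by PLZF. In all, 10 candidate probes had an r above 0.9 and 2 below -0.9. The highest of so many values are given as a description only.

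On these probes r was positive in each tissue and higher in adipose tissue, where the deviations were wider. For Pik3r1 r was 0.86 over the 8 lungs and 0.97 over the 8 adipose arrays, for Fign 0.82 and 0.99, and for Mcam 0.82 and 0.98. The widest deviations of Zbtb16 were those of control rats 1 and 2 in adipose tissue, -0.82 and 0.55, and r without these 2 arrays was 0.91, 0.90 and 0.88. Without the adipose arrays of control rat 1 and HDM rat 1, high in epididymis genes, r was 0.89, 0.88 and 0.87. The other probes of these genes followed Zbtb16 less closely. That of Pik3r1 had an r of 0.71, with 0.84 in lung, 0.68 in adipose tissue and 0.32 without those 2 arrays. That of Fign had an r of 0.84, with 0.27 in lung, 0.98 in adipose tissue and 0.60 without those 2 arrays. The other Zbtb16 probes reached 0.97 and 0.90.

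Of the glucocorticoid-induced genes 4 were examined in the same way. For Fkbp5 r was 0.01 over the 16 arrays, with 0.47 in lung and -0.13 in adipose tissue. For Per1 it was 0.07, with -0.51 in lung and 0.71 in adipose tissue, and for Klf9 -0.10, with -0.20 and -0.10. Tsc22d3 had an r of 0.65 over 15 arrays, with 0.21 in lung and 0.66 in adipose tissue. These values depended on the adipose arrays of control rat 1 and HDM rat 1. Without those 2 arrays r was 0.51 for Fkbp5, -0.44 for Per1, -0.51 for Klf9 and -0.64 for Tsc22d3. The deviations of a group sum to 0 and both tissues come from the same rats, so the 16 points are not independent. Pik3r1 differed little between HDM and control adipose tissue, by 0.05 on its brighter probe and -0.02 on the probe with the highest r, while Zbtb16 differed by -2.54 there.

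**Figure D5:**
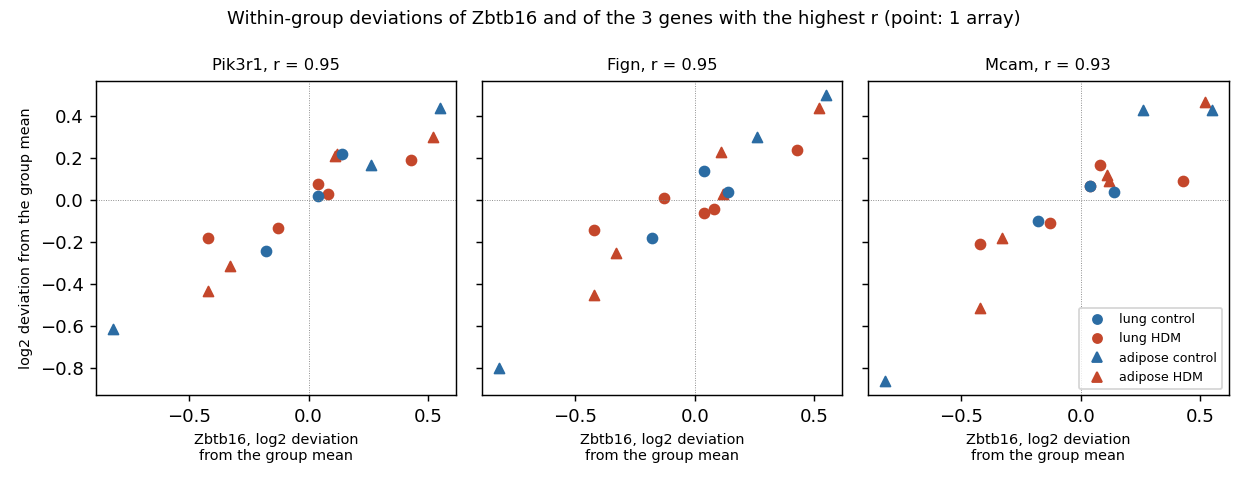
Deviation from the group mean on the log2 scale of Zbtb16 on A_44_P194939 (horizontal axis) and of Pik3r1, Fign and Mcam (vertical axis, panels). Each point is 1 array, circles for lung and triangles for adipose tissue, blue for control and red for HDM. The points rise together, with r between 0.93 and 0.95, and control rat 1 in adipose tissue lies at the lower left at -0.82 of Zbtb16.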

How the data were processed

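Per the labels, RNA was labelled with Cy3 and hybridised to Agilent SurePrint G3 rat arrays. The authors deposited 1 scanner file for each array, with spot intensity on a linear scale from Feature Extraction 12.0.3.1, background-subtracted and not normalized between arrays. They also deposited a table of log2 values made in GeneSpring GX, which matched these intensities within 0.1 log2 units, after centering within a tissue, in 100% of lung and 99.9% of adipose values and was used as an alternative. Control probes and outlier spots were left out, spots of a probe were averaged, and the 75th percentile of each array was subtracted on the log2 scale. Probes were named by matching their RefSeq accessions to 47357 rat genes of GRCr8, and a gene was read from its probe with the highest mean in the tissue. Groups were taken from the labels, and rats were inferred from the group and replicate number given there.

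HDM and control rats were compared in each tissue, and lung and adipose tissue in control rats, with limma 3.58.1 in R 4.3.3 (Benjamini–Hochberg over 45598 probes). The methods' unpaired t-test was an alternative, as were other scalings, background corrections, filters, blocks and left-out rats. The test planned between the tissues of HDM rats was not used, because those values were part of the choice of the gene. The control values were part of that choice too, which limits the test between the tissues of control rats. The p-values measure the spread between these rats, and the number of arrays limits every value. Replicate numbers of HDM and control rats name different animals and pair nothing within a tissue. Lung and adipose arrays of 1 number and group were taken as 1 rat, an inference from the matching numbers. Named genes were all Zbtb16 probes, the 5 most alike in each pattern, the 3 with the highest r, up to 4 called genes of each of 13 lists (otherwise the 2 with the smallest p) and a fixed set around glucocorticoid action, PLZF and reference genes. Klf15, Rgcc, Sgk1, Dusp1, Lcn5, Tbx21, Ptafr, Sh2d1a and the probe A_44_P505440 are not covered by it and were picked with their values in view. A gene among the most alike is not reported here. The gene and the lists were chosen with earlier results of these data known. The fits were tested on simulated data. Plots used matplotlib 3.10.9 (Python 3.11.15).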

Additional observations from a re-analysis of the deposited data

Results flagged for a closer look

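Of 95 sets of 5 HDM rats examined, 5 held a rat apart from its group, that is, the gap to its nearest neighbour took more than a share of 0.71 of the range of the group. Chance alone marks about 1 in 20 such sets. In adipose tissue these were Klf9, with HDM rat 2 at -0.01 and a gap of 0.791 of the range, Tsc22d3, with HDM rat 1 (gap of 0.747), and Zbtb33, with HDM rat 3 (gap of 0.738). In lung they were Nlrp3, with HDM rat 3 (gap of 0.842), and LOC102547513, with HDM rat 5 (gap of 0.712). No set of the 3 Zbtb16 probes was among them. The change in lung against the change in adipose tissue, tested within rats with limma, passed for none of the named genes, and for Zbtb16 it was not tested.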

How the results depend on the processing

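The log2 difference of Zbtb16 between HDM and control rats kept its sign under every alternative run, at -4.83 to -4.37 in lung (-4.37 with normexp and an offset of 50) and from -2.84 to -2.20 in adipose tissue. Leaving out single rats gave -4.81 to -4.59 for lung and -2.95 to -2.26 for adipose tissue. Lung minus adipose tissue in HDM rats was -1.39 on A_44_P366142 and -1.95 to -1.70 without single rats. In control rats this difference, never past the threshold, ranged from -0.15 (without control rat 1) to 0.58 without single rats, and was -0.08 without the adipose array of control rat 1. The adipose arrays of control rat 1 and HDM rat 1 were left out as a choice made after seeing the data. The count of 390 probes called in lung became 237 scaled to Gapdh and Hprt1, 597 with dim probes filtered, 737 with array weights, 1329 with p-values adjusted only past 1.5-fold, 25 with slide row as a block, and 100 to 333 without single rats. The 21 called list genes became 34 with that adjustment, 4 with the slide row and 10 to 20 without single rats. In adipose tissue the count of 0 probes became 7 with quantile normalization, 3 with the array median, 1 with normexp, 15 with array weights, 28 with adjustment only past 1.5-fold and 1 with the slide row, and stayed 0 without single rats. The called list genes there were 1, 1, 0, 2, 3 and 0 in the same order, and 0 without single rats. Scaling moved the median log2 difference of all adipose probes from -0.15 to 0.14 with the array median, and that of lung from 0.00 to -0.11 with Gapdh and Hprt1. The counts with the slide row rest on HDM rat 5 alone against the control rats, so they cannot show an effect of the row. The cause of these changes was not tested.

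Replicate numbers name different rats in HDM and control groups. Same-numbered arrays of both groups deviated together with r of -0.06, -0.08 and 0.05 for lung arrays, and 0.59, 0.14 and 0.10 for adipose arrays. The value of 0.59 belongs to control rat 1 and HDM rat 1, the 2 adipose arrays high in epididymis genes, and its cause was not tested. Between the lung and adipose arrays taken as 1 rat, r was 0, 0.11, -0.10, 0.04 and -0.01 in HDM rats 1 to 5. In control rats 1 to 3 it was 0.07, 0.05 and -0.05. With the replicate number as a block, Zbtb16 differed by -4.68 in lung and -2.47 in adipose tissue, 0 probes and 0 list genes were called in lung, and 0 probes in adipose tissue. With the rat as a block, lung minus adipose tissue was 0.33 in control rats (limma adjusted p = 0.513) and -1.83 in HDM rats.

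Some named genes, many of them near 0 in the fits used above, turned sign without passing. In those fits Il17rb and Myh2 differed by -1.06 and -1.03 in adipose tissue. Hprt1 differed there by 0.04, over 4 HDM rats. In lung Cul3 did so with quantile normalization (0.02), the percentile over detected probes (0.01), normexp (0), slide row (0.03) and without control rat 1 or 2 (0.01 each), with a range of -0.09 to 0.01 without single rats. Hmga2 did so with normexp (0.03), the replicate block (0.19) and without HDM rat 4 (-0.34 to 0.07 without single rats), Gapdh scaled to Gapdh and Hprt1 (-0.02) and with the replicate block (-0.01), Hprt1 with the replicate block (0.08) and without HDM rat 4 (-0.14 to 0.01), and Zbtb20 without HDM rat 3 (-0.19 to 0). In adipose tissue Hprt1 did so with quantile normalization (-0.02), detected probes (-0.03), Gapdh and Hprt1 (-0.04), normexp (-0.05), the deposited table (-0.64), the replicate block (-0.08) and without HDM rat 4 or 5 (0 each) or control rat 3 (-0.03), ranging to 0.11. Pik3r1 did so with array weights (-0.06), the replicate block (-0.04), without HDM rat 3 (-0.03), HDM rat 5 (-0.06), control rat 1 (-0.35, ranging to 0.27) and both epididymis-rich arrays (-0.29). Zbtb20 did so with the array median (0.17), slide row (0.23) and without control rat 2 (0.1), Hsd11b1 (0.05) and Gapdh (0.16) with the array median, Sftpc with quantile normalization (0.1) and normexp (0.04), and Il17rb (0) and Myh2 (0) with normexp. Over all named genes and alternatives, 108 values in lung lost a call, and 21 in lung and 10 in adipose tissue gained one.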
